A study of Mus musculus with 4 samples.

Results

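Aminoacyl-tRNA synthetases are the enzymes that load each transfer RNA with its amino acid. The 36 genes described here were all those of a fixed list of synthetase names that the array design carried on non-control probes. They comprise 20 enzymes of the cytosol and 16 of the mitochondrion, and they are 36 of the 13062 genes measured. RNA came from double-positive (DP) thymocytes, the CD4+CD8+ stage of T cell development, sorted from untreated, sex-matched littermate mice of 6 to 12 weeks. Both groups carried loxP-flanked Usp8 alleles. USP8ff mice had no Cre and served as controls, and USP8ff_CD4Cre mice also carried the CD4Cre transgene, which is active in DP thymocytes. Each group had 2 samples, each a pool of 2 mice (8 mice in all), so p-values reflect the spread between pools. No group carried Cre without the floxed alleles, so an effect of Cre and one of the deletion cannot be told apart.

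The cytosolic synthetases feed translation on cytosolic ribosomes. Several of them, with the scaffold proteins AIMP1, AIMP2 and AIMP3 (the gene Eef1e1), form the multisynthetase complex, and the rest act outside it. The mitochondrial synthetases are separate nuclear genes whose products charge the transfer RNAs used to make the few respiratory-chain proteins encoded in mitochondrial DNA. Gars and Kars, counted here as cytosolic, each encode the enzyme of both compartments. When amino acids are scarce or proteins misfold in the endoplasmic reticulum, kinases phosphorylate eIF2, bulk translation slows, and the transcription factor ATF4 is made. ATF4 is known to raise transcription of many cytosolic synthetases along with amino acid transporters and enzymes of serine and one-carbon metabolism, and it acts through promoter elements built from a C/EBP half-site and an ATF half-site. Mitochondrial synthetases are not usually counted among its targets. Comparing the enzymes of both compartments therefore sets known ATF4 targets beside genes of like function that mostly are not.

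To show where such elements lie, the promoters with a match are given first. Windows from 250 bases before to 50 bases after each annotated start (RefSeq, GRCm38.p6) were searched on both strands for TGATGNAA, whose reverse complement is TTNCATCA. Of the 13 cytosolic synthetases with a window, 5 held a match (38.5%), compared with 0 of 14 mitochondrial ones and 9 of 30 other ATF4 targets (30.0%). Of all 32851 windows, 1304 held a match (3.97%). This last share counts windows and the others count genes, some of which have several windows, so the units are not the same. The windows of those 5 genes are printed 5′ to 3′ on the strand of the gene, with the match in capitals, followed by that of the mitochondrial enzyme Iars2, which has none. They lie at chr8:111033592-111033891 (Aars, + strand), chr6:55037751-55038050 (Gars, +), chr13:49681880-49682179 (Iars, +), chr15:11399609-11399908 (Tars, -), chr4:129189653-129189952 (Yars, +) and chr1:185329352-185329651 (Iars2, -).
Aars: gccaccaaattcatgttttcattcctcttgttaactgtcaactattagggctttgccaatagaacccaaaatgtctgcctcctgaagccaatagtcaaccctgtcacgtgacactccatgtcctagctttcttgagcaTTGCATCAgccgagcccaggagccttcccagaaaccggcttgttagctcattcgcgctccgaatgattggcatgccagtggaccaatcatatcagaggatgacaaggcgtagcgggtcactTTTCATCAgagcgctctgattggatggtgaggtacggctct
Gars: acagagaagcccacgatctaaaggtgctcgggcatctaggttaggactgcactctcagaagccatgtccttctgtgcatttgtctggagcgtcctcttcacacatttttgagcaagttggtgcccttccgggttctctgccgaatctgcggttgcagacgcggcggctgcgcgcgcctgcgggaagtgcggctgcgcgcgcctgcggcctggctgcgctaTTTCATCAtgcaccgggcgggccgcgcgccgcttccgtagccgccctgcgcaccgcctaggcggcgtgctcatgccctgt
Iars: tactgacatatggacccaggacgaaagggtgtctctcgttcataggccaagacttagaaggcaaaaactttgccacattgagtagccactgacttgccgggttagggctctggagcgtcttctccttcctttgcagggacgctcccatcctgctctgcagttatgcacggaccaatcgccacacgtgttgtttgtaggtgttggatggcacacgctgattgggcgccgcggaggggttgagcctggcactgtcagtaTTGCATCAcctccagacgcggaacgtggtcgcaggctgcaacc
Tars: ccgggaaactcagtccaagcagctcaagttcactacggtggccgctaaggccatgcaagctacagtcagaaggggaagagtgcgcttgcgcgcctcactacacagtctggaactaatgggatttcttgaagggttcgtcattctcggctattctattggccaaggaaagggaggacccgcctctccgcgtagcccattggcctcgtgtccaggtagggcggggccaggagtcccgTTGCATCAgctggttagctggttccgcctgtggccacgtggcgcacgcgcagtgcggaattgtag
Yars: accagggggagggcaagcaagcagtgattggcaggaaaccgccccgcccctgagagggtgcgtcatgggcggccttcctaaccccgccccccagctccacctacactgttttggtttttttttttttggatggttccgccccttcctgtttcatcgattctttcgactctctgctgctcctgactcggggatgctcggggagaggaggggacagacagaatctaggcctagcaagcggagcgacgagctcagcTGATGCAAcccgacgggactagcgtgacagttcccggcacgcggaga
Iars2: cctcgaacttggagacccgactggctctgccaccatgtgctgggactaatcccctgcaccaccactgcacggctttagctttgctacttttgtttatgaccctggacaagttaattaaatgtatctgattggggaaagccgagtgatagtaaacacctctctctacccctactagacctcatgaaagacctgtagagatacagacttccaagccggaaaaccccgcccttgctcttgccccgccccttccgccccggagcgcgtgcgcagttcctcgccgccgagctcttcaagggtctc
A match of letters is not evidence that a factor binds there. Counting the first transcribed base as 1, Aars had matches at -112 to -105 and at 10 to 17, and Gars, Tars, Iars and Yars had 1 each, at -30 to -23, -15 to -8, 8 to 15 and 4 to 11. No window was searched for Cars, Hars, Lars, Nars, Rars, Vars, Wars, Hars2 and Pars2.

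Signals are given as the log2 processed intensity of a probe minus the 75th percentile of its array, so 0 is the level of that percentile and a difference of 1 is a 2-fold change. The share of probes well above background ran from 45.0% to 48.9% of 41174, and 0 spots were saturated. All 10 DP thymocyte markers were well above background on all 4 arrays, while 4 of 5 B cell markers, 3 of 6 erythroid, 2 of 8 macrophage and dendritic cell and 2 of 6 stromal markers were so on none. Usp8, the targeted gene, read -0.23 and -0.40 in USP8ff against -1.03 and -1.23 in USP8ff_CD4Cre, a difference of -0.81 ± 0.13 (SE, limma adjusted p = 0.60). The smallest adjusted p of any gene was 0.29.

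Every synthetase was detected in DP thymocytes, and none passed the test between genotypes. All 36 genes were well above background on all 4 arrays. In limma, 0 of 36 passed an adjusted p of 0.05, as did 0 of all 13062 genes (0.0%), and the smallest adjusted p among the synthetases was 0.70. At an unadjusted p under 0.05 the synthetases again gave 0 in either direction, where 518 of all genes (3.97%) were higher and 452 (3.46%) lower in USP8ff_CD4Cre. The differences were small: 33 of 36 were under 0.25 in absolute size on the log2 scale. All 36 of the 95% intervals included 0, and their half-widths ran from 0.26 to 1.03 with a median of 0.30. For 35 genes the whole interval lay within 1 of 0, that is, within a 2-fold change either way, and Vars2 was the exception.

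In both USP8ff_CD4Cre pools 12 of the 36 genes lay above both USP8ff pools, 5 lay below both, and 19 overlapped. Over all genes, 24.3% lay above and 16.3% below. Of the cytosolic enzymes 14 of 20 had a positive difference (USP8ff_CD4Cre minus USP8ff), with a median of 0.09 and a range of -0.20 to 0.42, and 8 lay above, 3 below and 9 overlapped. Of the mitochondrial enzymes 9 of 16 had a positive difference, with a median of 0.03 and a range of -0.41 to 0.41, and 4 lay above, 2 below and 10 overlapped. Over all genes 54.8% of differences were positive, with a median of 0.02.

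**Figure D1:**
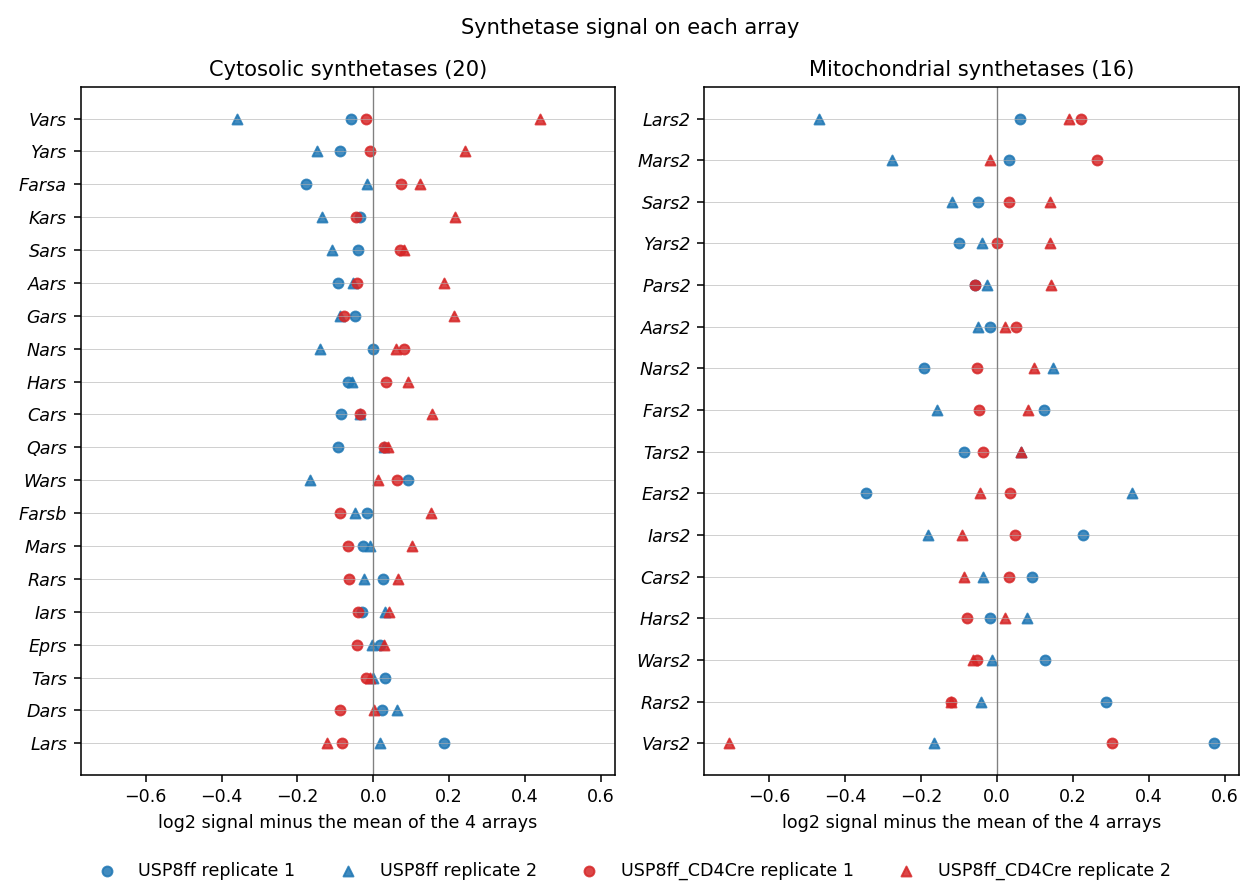
Log2 signal of each synthetase on each array minus its mean over the 4 arrays (x axis), for 20 cytosolic (left) and 16 mitochondrial enzymes (right), ordered by the difference between genotypes. Blue marks USP8ff and red USP8ff_CD4Cre, circles replicate 1 and triangles replicate 2. For many cytosolic enzymes the array at the right is USP8ff_CD4Cre replicate 2, while Vars2 spreads over more than 1 log2 unit with both replicate 1 arrays high.

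Among the cytosolic enzymes outside the multisynthetase complex, 11 of 12 had a positive difference and the median was 0.14. Vars, the valyl enzyme (mm9, chromosome 17, 35152339 to 35152398), had the widest gap of the cytosolic set. Its signals were 1.30 and 1.0 in USP8ff against 1.34 and 1.80 in USP8ff_CD4Cre. Replicate 1 of the groups was nearly level and the gap came mainly from replicate 2. The difference was 0.42 ± 0.20 (SE), or 1.34-fold (95% interval -0.09 to 0.92, limma adjusted p = 0.70). A second Vars probe gave 1.30 and 0.97 against 1.29 and 1.74, a difference of 0.38.

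Yars, the tyrosyl enzyme (chromosome 4, 128896047 to 128896106), read 1.66 and 1.60 in USP8ff against 1.74 and 1.99 in USP8ff_CD4Cre. The groups did not overlap, and the difference was 0.24 ± 0.13 (SE, limma adjusted p = 0.70). Its promoter is one of those with a match. Farsa, the catalytic subunit of the phenylalanyl enzyme (chromosome 8, 87392888 to 87392947), had 2.60 and 2.76 against 2.85 and 2.90. Here too both USP8ff_CD4Cre pools were the higher ones, by 0.20 ± 0.12 (SE, limma adjusted p = 0.71), and the 3 Farsa probes gave differences from 0.11 to 0.20. Farsb, the other subunit of the same enzyme, overlapped between groups, with a difference of 0.06 ± 0.13.

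Seryl enzyme Sars (chromosome 3, 108229539 to 108229598) showed some of the tightest replicates, at 3.91 and 3.84 in USP8ff against 4.02 and 4.03 in USP8ff_CD4Cre. The groups lay apart, and the difference was 0.15 ± 0.10 (SE, limma adjusted p = 0.74). For Nars, the asparaginyl enzyme, the values were 0.92 and 0.78 against 1.0 and 0.98, again without overlap, a difference of 0.14 ± 0.11 (limma adjusted p = 0.78). Hars, the histidyl enzyme, had 2.35 and 2.36 against 2.45 and 2.51 and a difference of 0.12 ± 0.10 (limma adjusted p = 0.79). Its probes differed in sign, however: the dimmer one had -2.82 and -2.67 in USP8ff against -2.78 and -3.01 in USP8ff_CD4Cre, a difference of -0.15.

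The cysteinyl enzyme Cars (chromosome 7, 150745052 to 150745111) had 1.29 and 1.34 in USP8ff against 1.34 and 1.53 in USP8ff_CD4Cre, a difference of 0.12 ± 0.12 (limma adjusted p = 0.83). Its 3 probes gave 0.12, 0.07 and -0.05. For Wars, the tryptophanyl enzyme (chromosome 12, 110098448 to 110098507), the values of 0.94 and 0.68 against 0.91 and 0.86 overlapped, with a difference of 0.07 ± 0.13 (limma adjusted p = 0.92) and of -0.03 at its other probe. For Aars (alanyl) and Gars (glycyl), USP8ff_CD4Cre replicate 2 was the highest array. Aars had 3.29 and 3.33 against 3.34 and 3.57, a difference of 0.14 ± 0.12. Gars had -0.19 and -0.23 against -0.22 and 0.07, a difference of 0.14 ± 0.14. Tars, the threonyl enzyme, was the 1 member of this set with a negative difference, -0.03 ± 0.10.

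Of the 8 enzymes of the multisynthetase complex, 3 had a positive difference, and the median was -0.002. That count was 4 with quantile normalization or normexp background and 2 with the mean of probes. Without USP8ff_CD4Cre replicate 2 it was 2, and without USP8ff_CD4Cre replicate 1 it was 6. It depends on signs of values near 0, as Rars, Iars and Eprs were negative by -0.001, -0.002 and -0.01. In both USP8ff_CD4Cre pools 1 of them lay above both controls and 2 below, beside 24.3% and 16.3% of all genes, and 5 overlapped. Lars, the leucyl enzyme, which also serves as a leucine sensor for mTORC1, had the lowest difference of the 20. Its signals were 3.65 and 3.48 in USP8ff against 3.38 and 3.34 in USP8ff_CD4Cre. Both USP8ff_CD4Cre pools were below both controls, with a difference of -0.20 ± 0.12 (SE, 95% interval -0.49 to 0.09, limma adjusted p = 0.71). Its other probes had differences of -0.43 and -0.04, so all 3 were negative.

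Kars, the lysyl enzyme (chromosome 8, 114520409 to 114520468), went the other way, with 2.97 and 2.87 in USP8ff and 2.96 and 3.22 in USP8ff_CD4Cre. The groups overlapped, and the difference was 0.17 ± 0.13 (limma adjusted p = 0.77). Dars, the aspartyl enzyme (chromosome 1, 130263566 to 130264957), had 2.15 and 2.19 against 2.04 and 2.13, a difference of -0.09 ± 0.11 (limma adjusted p = 0.86). The 2 dimmer Dars probes gave -0.15 and 0.07.

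Eprs, Iars and Mars were nearly level between genotypes. Eprs, which charges both glutamate and proline (chromosome 1, 187244158 to 187248240), had 1.88 and 1.86 against 1.82 and 1.89, a difference of -0.01 ± 0.10 (limma adjusted p = 0.98) that was positive, 0.008, with normexp background. Its 4 probes ran from -0.09 to 0.02. Iars, the isoleucyl enzyme (chromosome 13, 49829328 to 49829387), had 2.19 and 2.25 against 2.18 and 2.26, a difference of -0.002 ± 0.11 (limma adjusted p = 1.0). Its dimmest probe had a difference of -0.23 and the remaining one 0.01. Mars, the methionyl enzyme (chromosome 10, 126733940 to 126733999), had 1.80 and 1.82 against 1.76 and 1.93, a difference of 0.03 ± 0.11 (limma adjusted p = 0.95), and its second probe -0.11. Qars, the glutaminyl enzyme, had a difference of 0.07 ± 0.11. Rars, the arginyl enzyme, had -0.001 ± 0.11, which was 0.044 with quantile normalization.

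**Figure D2:**
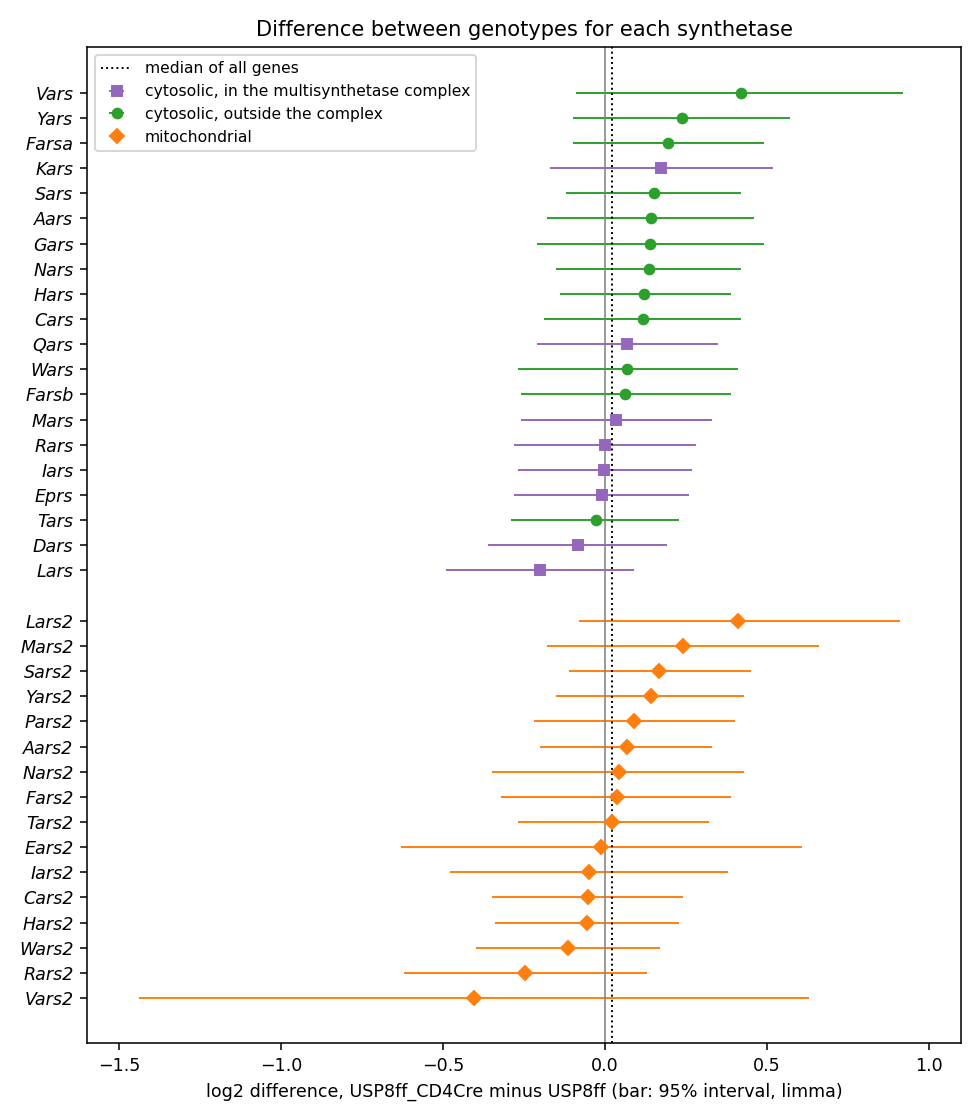
Log2 difference between genotypes (x axis, USP8ff_CD4Cre minus USP8ff) for each of the 36 synthetases, with the 95% interval of the limma fit as a bar. Purple squares are enzymes of the multisynthetase complex, green circles the other cytosolic enzymes and orange diamonds the mitochondrial ones, and the dotted line is the median of all 13062 genes. All intervals cross 0, and the widest, from -1.44 to 0.63, is that of Vars2.

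The cytosolic values were highest on USP8ff_CD4Cre replicate 2. Averaged over the 20 cytosolic genes, the signal relative to each gene's mean over the arrays was -0.02 and -0.06 in USP8ff and -0.02 and 0.11 in USP8ff_CD4Cre, so that replicate 1 of both groups was level. The 16 mitochondrial genes averaged 0.04 and -0.06 in USP8ff and 0.03 and -0.02 in USP8ff_CD4Cre, with no array apart. Without USP8ff_CD4Cre replicate 2 the cytosolic median was 0.026, with 11 of 20 positive, and outside the complex 9 of 12 were positive. Without USP8ff_CD4Cre replicate 1 it was 0.137, with 17 of 20 positive, and the complex then had 6 of 8 positive.

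The same array was highest for other gene groups. The 25 mitotic and replication genes averaged -0.13 and -0.33 in USP8ff and 0.05 and 0.41 in USP8ff_CD4Cre, all 25 had a positive difference (median 0.50), and 12 were higher at an unadjusted p under 0.05, beside 3.97% of all genes. That count was 20 with an eBayes trend, 21 with normexp background and 4 with no filter on dim probes. Without USP8ff_CD4Cre replicate 2 all 25 were still positive (median 0.306) and 0 reached that level, and without USP8ff replicate 2 the median was 0.374 and again 0 did. Of the erythroid markers 2 of 6 were measured, averaging -0.35 and -0.21 in USP8ff and -0.30 and 0.86 in USP8ff_CD4Cre. Markers of other kinds were lower in USP8ff_CD4Cre. Of 10 DP thymocyte markers 8 had a negative difference (median -0.11), with Rag2 at -0.33 ± 0.13. Of the macrophage and dendritic cell markers 4 of 8 were measured and 3 had a negative difference, with Mpeg1 at -1.09 ± 0.23, and of the stromal markers 3 of 6 were measured and 2 had one, with Epcam at -0.47 ± 0.13. Each of these 3 genes was below an unadjusted p of 0.05, at 0.0498, 0.00527 and 0.0152 in limma, and none passed the adjusted test. The part of proliferation or of other cells in the synthetase values was not tested. In bulk samples, fewer cells of a type and less RNA per cell cannot be told apart.

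Known ATF4 targets among the synthetases had values close to those of the other cytosolic enzymes. Of the 13 listed as targets 9 had a positive difference, with a median of 0.12, and of the 7 others 5 did, with a median of 0.07. The 5 genes with a promoter match had a median of 0.14, from -0.03 (Tars) to 0.24 (Yars), and the 8 cytosolic genes whose window had none a median of 0.066. No test of these differences was made. Atf4 itself read 1.48 and 1.49 in USP8ff against 1.41 and 1.60 in USP8ff_CD4Cre, a difference of 0.02 ± 0.12 (limma adjusted p = 0.97) that was negative with normexp background. ATF4 is known to be controlled largely at translation, which arrays do not measure.

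The other ATF4 targets include genes that import or make amino acids. Of 34 listed, 26 were measured, 22 had a positive difference (median 0.13; 19 with quantile normalization or normexp background), 12 lay above and 2 below (24.3% and 16.3% of all genes did), and 0 passed the adjusted test in limma. At an unadjusted p under 0.05, 6 were higher and 1 lower, beside 3.97% and 3.46% of all genes. These counts were 1 and 0 without USP8ff_CD4Cre replicate 2, 3 and 0 without USP8ff replicate 2, and 2 and 0 with no filter on dim probes. Mthfd2, a mitochondrial one-carbon enzyme, had -0.31 and -0.33 in USP8ff against 0.11 and 0.50 in USP8ff_CD4Cre, a difference of 0.63 ± 0.16. Psat1, an enzyme of serine synthesis, had 1.76 and 1.63 against 2.06 and 2.40, a difference of 0.54 ± 0.15, and Atf5, a related transcription factor, had a difference of 0.32 ± 0.11 (limma adjusted p = 0.66 for each of these). Both USP8ff_CD4Cre pools lay above both controls for these 3 genes, as they did for 5 of the 13 synthetases counted as targets. Of those 13, 2 lay below both controls and 6 overlapped. Among the other ATF4 targets, the 1 lower at an unadjusted p under 0.05 was Slc7a11, a cystine transporter, at -0.64 ± 0.24.

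**Figure D3:**
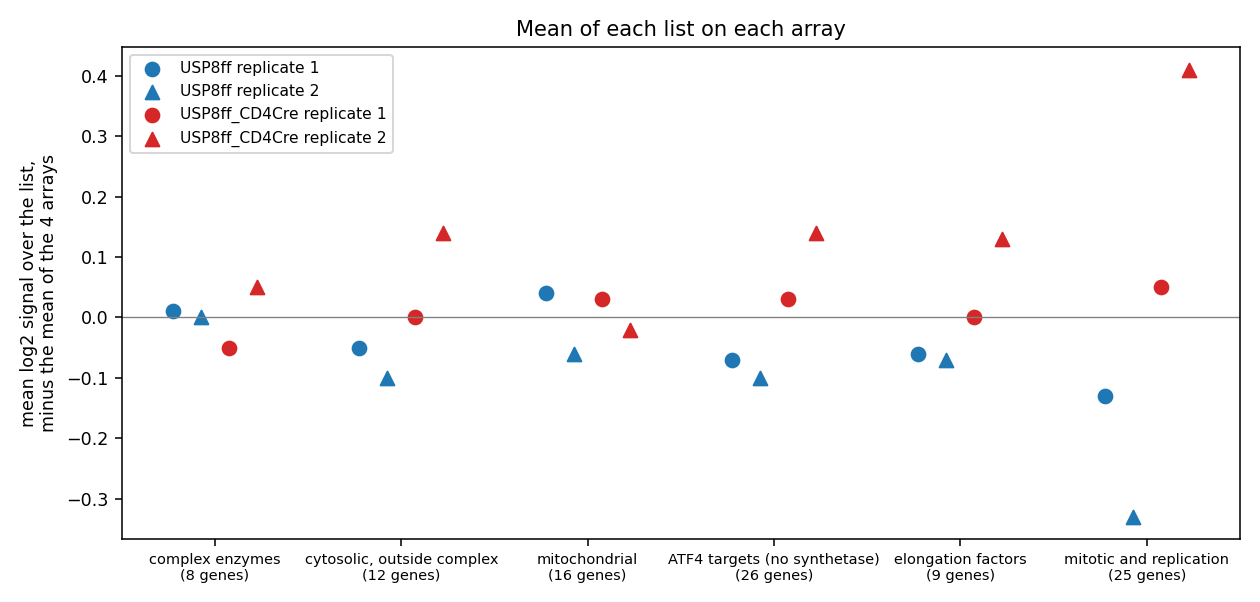
Mean log2 signal of 6 gene lists on each array, relative to each gene's mean over the 4 arrays (y axis). Blue marks USP8ff and red USP8ff_CD4Cre, circles replicate 1 and triangles replicate 2. For the 12 cytosolic enzymes outside the complex, the ATF4 targets, the elongation factors and the mitotic genes, USP8ff_CD4Cre replicate 2 is the highest array, at 0.14, 0.14, 0.13 and 0.41. It is also the highest for the complex enzymes, by less, at 0.05, and for the mitochondrial enzymes it is not.

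Upstream of ATF4, the eIF2 subunits, their exchange factor and the kinases that sense amino acids or stress were split, with 7 of 13 measured genes positive (14 listed, median 0.01) and 0 called in limma, also at an unadjusted p under 0.05. Eif2s3x and Eif2s1, subunits of eIF2, had differences of 0.17 ± 0.10 and 0.18 ± 0.13, and Eif2ak2, the kinase PKR, had -0.26 ± 0.18. Downstream of charging, all 9 cytosolic elongation and release factors had a positive difference (6 with quantile normalization, 8 with normexp background), with a median of 0.12, and 0 were called at an unadjusted p under 0.05 in limma. Eif5a, which helps stalled ribosomes, had 5.05 and 4.80 in USP8ff against 5.11 and 5.35 in USP8ff_CD4Cre, a difference of 0.31 ± 0.15. Gspt1 and Etf1, the release factors, had 0.25 ± 0.12 and 0.15 ± 0.11. The elongation factors averaged -0.06 and -0.07 in USP8ff and 0.0 and 0.13 in USP8ff_CD4Cre, and without USP8ff_CD4Cre replicate 2 they had 7 of 9 positive.

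Among the mitochondrial enzymes, Lars2, which charges leucine, had the smallest unadjusted p of all 36 (0.0866 in limma). Its single probe (chromosome 9, 123371116 to 123371175) lay far above the 75th percentile on every array. Among 41174 probes it ranked 1 and 5 in USP8ff and 1 on both USP8ff_CD4Cre arrays. The signals were 9.66 and 9.13 in USP8ff against 9.82 and 9.79 in USP8ff_CD4Cre. The groups did not overlap, but the control pools differed from each other by more than the groups did. The difference was 0.41 ± 0.19 (SE, 95% interval -0.08 to 0.91, limma adjusted p = 0.70). With quantile normalization it was 0.199. It was 0.147 without USP8ff replicate 2 and 0.674 without USP8ff replicate 1. Rn18s, the 18S ribosomal RNA, had 9.23 and 8.81 in USP8ff against 9.74 and 9.45 in USP8ff_CD4Cre, a difference of 0.57 ± 0.19 (limma adjusted p = 0.66). USP8ff replicate 2 was the lowest array for both, and whether ribosomal RNA adds to the Lars2 signal was not tested.

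Rars2, the mitochondrial arginyl enzyme (chromosome 4, 34602139 to 34603269), had 0.57 and 0.24 in USP8ff and 0.16 in both USP8ff_CD4Cre pools. It lay below both controls, with a difference of -0.25 ± 0.15 (SE, limma adjusted p = 0.71), and control replicate 1 set most of the gap. Mars2, the methionyl enzyme (chromosome 1, 55295642 to 55295701), had -1.16 and -1.47 against -0.93 and -1.21, overlapping, a difference of 0.24 ± 0.17 (limma adjusted p = 0.74). Sars2 (seryl, chromosome 7, 29538621 to 29538680) had 1.06 and 0.99 against 1.14 and 1.25, a difference of 0.17 ± 0.11 (limma adjusted p = 0.73). Yars2 (tyrosyl, chromosome 16, 16307393 to 16307452) had 1.22 and 1.28 against 1.32 and 1.46, a difference of 0.14 ± 0.11 (limma adjusted p = 0.78). For Sars2 and Yars2 both USP8ff_CD4Cre pools were above both controls.

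For 3 mitochondrial genes the kept probes had opposite signs. Wars2 (tryptophanyl, chromosome 3, 99020906 to 99020965) had -1.66 and -1.80 in USP8ff against -1.84 and -1.85 in USP8ff_CD4Cre, a difference of -0.12 ± 0.11 (limma adjusted p = 0.82), against 0.15 at its dimmer probe. Iars2 (isoleucyl, chromosome 1, 187111041 to 187111948) had 1.95 and 1.54 against 1.77 and 1.63, a difference of -0.05 ± 0.17 (limma adjusted p = 0.95), against 0.05. Tars2 (threonyl, chromosome 3, 95544099 to 95544158) had 2.75 and 2.90 against 2.80 and 2.90, a difference of 0.02 ± 0.12 (limma adjusted p = 0.97) that was -0.021 with quantile normalization, against -0.09 at its second probe. Over both compartments 18 genes had several kept probes, of which 8 had probes of 1 sign and 10 had not.

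Vars2, the mitochondrial valyl enzyme (chromosome 17, 35793590 to 35793732), was the most variable member and is described because of its values. It had 3.20 and 2.46 in USP8ff against 2.93 and 1.92 in USP8ff_CD4Cre. Replicate 1 exceeded replicate 2 in both groups by more than the groups differed, and the difference was -0.41 ± 0.40 (SE, 95% interval -1.44 to 0.63, limma adjusted p = 0.82). Without USP8ff_CD4Cre replicate 2 it was 0.099, a value that sets the 1 higher USP8ff_CD4Cre array against both controls. Between arrays of the same number, the USP8ff_CD4Cre array was the lower one for both numbers. Its second probe repeated the pattern, at 2.34 and 1.70 against 2.13 and 1.15, a difference of -0.38.

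**Figure D4:**
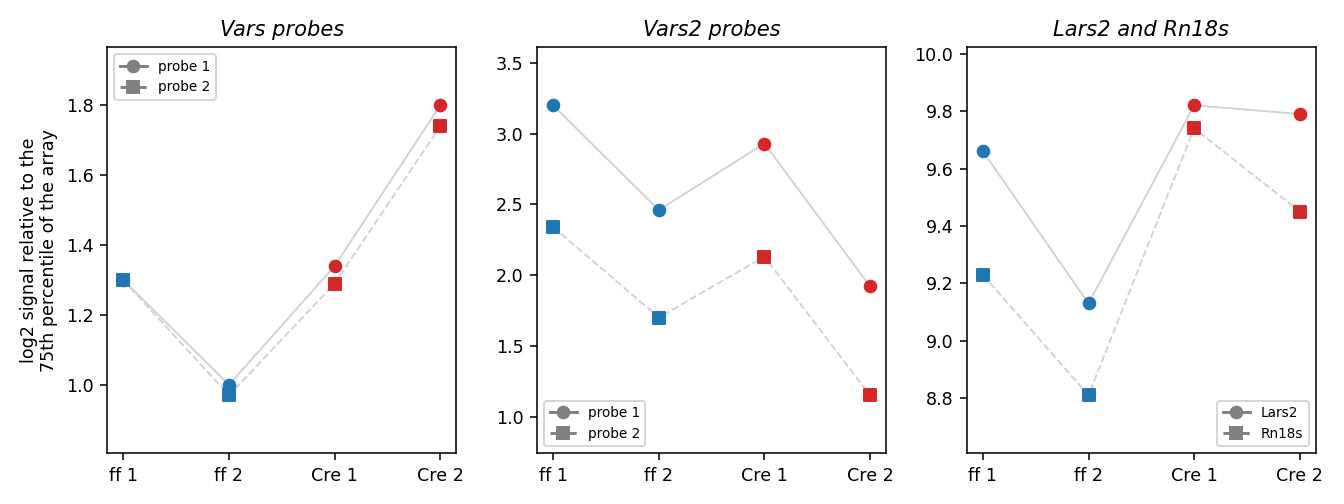
Log2 signal above the 75th percentile of the array (y axis, a scale of its own in each panel) for both probes of Vars, both kept probes of Vars2, and the single Lars2 probe with Rn18s, on the USP8ff (blue) and USP8ff_CD4Cre (red) arrays. Lines only join values of 1 probe. The Vars probes nearly coincide, both Vars2 probes are higher in replicate 1 than in replicate 2 of each group, and Lars2 and Rn18s are both lowest in USP8ff replicate 2.

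The remaining mitochondrial enzymes differed by less than 0.1 in either direction. Pars2 (prolyl) and Aars2 (alanyl) had differences of 0.09 ± 0.12 and 0.07 ± 0.10. Nars2 (asparaginyl) and Fars2 (phenylalanyl) both had 0.04, with SE of 0.15 and 0.14. Hars2 (histidyl) and Cars2 (cysteinyl) had -0.06 ± 0.11 and -0.05 ± 0.12. Ears2, the glutamyl enzyme, had -0.91 and -0.21 in USP8ff against -0.53 and -0.61 in USP8ff_CD4Cre, so its controls spanned both other arrays, and the difference of -0.01 ± 0.24 was 0.012 with quantile normalization.

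For 13 amino acids the cytosolic and the mitochondrial enzyme could be set side by side as differences between genotypes. The cytosolic difference was the higher one in 9 of 13, with a median gap of 0.10. Both enzymes were positive in 5, both negative in 2, and of opposite sign in 6. Valine and leucine, both branched-chain amino acids, lay at opposite ends: Vars minus Vars2 was 0.82 and Lars minus Lars2 was -0.61. For isoleucine, also branched-chain, Iars minus Iars2 was 0.05. The valine gap rested on USP8ff_CD4Cre replicate 2: without that array it was 0.09, with 4 pairs above it, and without USP8ff_CD4Cre replicate 1 it was 1.56. The leucine gap was the lowest of the 13 with any array left out, from -0.79 to -0.43. It includes the signal of the single Lars2 probe, in which a part of ribosomal RNA was not tested. Arginine followed, with a gap of 0.24, set by Rars2. For serine, tyrosine and alanine the enzymes of both compartments had positive differences, of 0.15 and 0.17, 0.24 and 0.14, and 0.14 and 0.07. The mean difference was 0.09 for the cytosolic and 0.02 for the mitochondrial list, a gap smaller than the SD between arrays of a group of the cytosolic minus mitochondrial mean (0.092). The gap between the list medians, 0.064, was 0.012 without USP8ff_CD4Cre replicate 2, 0.020 without USP8ff replicate 2 and 0.028 with the mean of probes. The gap between the means turned to -0.017 without USP8ff_CD4Cre replicate 2.

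**Figure D5:**
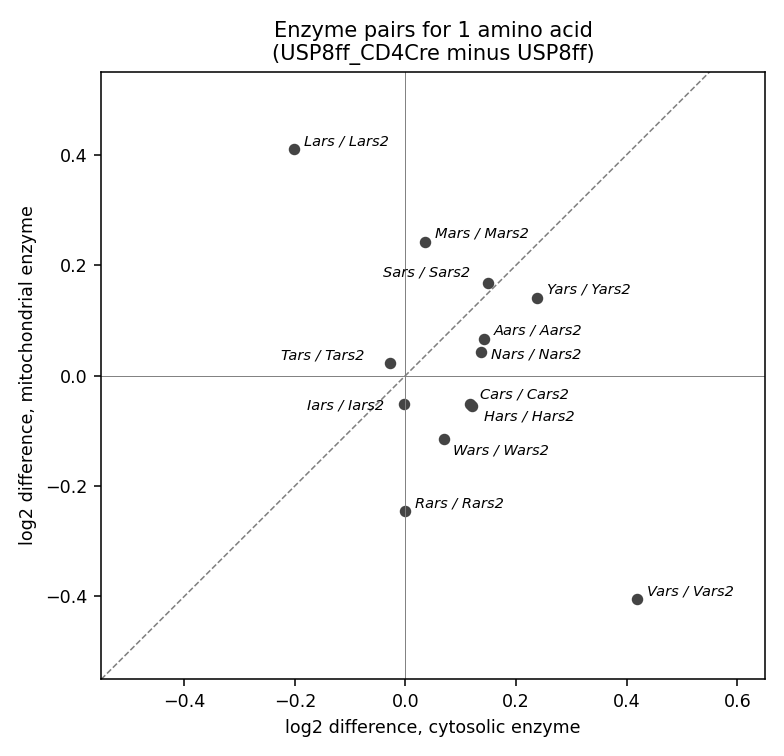
Log2 difference between genotypes of the cytosolic enzyme (x axis) and of the mitochondrial enzyme (y axis) for the same amino acid, 13 pairs in all. The dashed line marks equal differences, and 9 of 13 pairs lie below it. Vars with Vars2 (gap 0.82) and Lars with Lars2 (gap -0.61) lie farthest from it.

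Genes that work beside the synthetases were also mixed. Of 18 partners, which include complex scaffolds, tRNA editing and export factors and further synthetase-like genes, 11 had a positive difference (median 0.05), 5 lay above and 3 below (24.3% and 16.3% of all genes did), and 0 were called in limma, also at an unadjusted p under 0.05. The partner median changed sign with the array left out: it was -0.043 without USP8ff replicate 2 (8 of 18 positive, 2 lower at an unadjusted p under 0.05), -0.003 without USP8ff_CD4Cre replicate 2 (8 of 18) and 0.116 without USP8ff replicate 1 (14 of 18). Aimp2, a scaffold of the multisynthetase complex, had -2.78 and -2.75 in USP8ff against -2.56 and -2.14 in USP8ff_CD4Cre, the largest partner difference at 0.42 ± 0.17 (limma adjusted p = 0.67). The other scaffolds had smaller values, 0.06 ± 0.11 for Aimp1 (negative with quantile normalization) and 0.12 ± 0.12 for Eef1e1. Dtd1, which removes D-amino acids from tRNA, had 0.27 and -0.17 against -0.35 and -0.25, a difference of -0.35 ± 0.17, and Ptrh2, a peptidyl-tRNA hydrolase, had 0.22 ± 0.13. Of 12 mitochondrial translation factors 9 had a positive difference (median 0.08), with 0 called at an unadjusted p under 0.05 in limma. Tufm, the mitochondrial elongation factor Tu, had 4.43 and 4.64 against 4.73 and 4.78, a difference of 0.22 ± 0.12, and Mterf2 and Gfm2 had -0.29 ± 0.12 and -0.16 ± 0.11.

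The comparison in the authors' deposited table lists 78 probes, with absolute folds of 2.0 or more. It held 0 of the 71 synthetase probes.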

How the data were processed

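RNA (500 ng) from sorted DP thymocytes was labelled with Cy3 and hybridised to 4 arrays of 1 slide, per the labels and the file headers. Per the file headers, spots were read and background-subtracted with Feature Extraction 10.7.3.1; the deposited scanner files hold intensity values without normalization across arrays. The authors' deposited table gives a fold and a p-value for 78 probes, by a method not given in the sources used here. Another deposited table, with 4 columns of per-sample values under names no label matches, was left out.

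From the deposited intensities, log2 values were taken and each array's 75th percentile over 43379 non-control spots was subtracted. Outlier spots were left out (17 of 41174 probes lost, no synthetase probe), and replicate spots were averaged. A probe was kept if well above background on each array of either group; 62 of 71 synthetase probes were kept, and 8 of the rest were so on no array. The kept probe with the highest mean stood for its gene, so a dim probe of a bright gene had no part in the main value. Synthetases carry the names of the array design, other genes RefSeq names where an accession matched (26690 probes) and design names elsewhere. Positions are those of the files (mm9). The number of arrays limits the precision.

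Genotypes were compared over 13062 genes with limma 3.58.1 in R 4.3.3 (lmFit, eBayes, no block), with Benjamini-Hochberg adjustment and a threshold of 0.05, and the script was tested on simulated data. The members and the lists were chosen with earlier results of these data known. The 8 cytosolic and 5 mitochondrial synthetases with the smallest unadjusted p, and those whose kept probes differ in sign, were given in full, as were up to 3 genes of each other list; Vars2, Ears2, Aars, Gars, Atf4, Slc7a11, Aimp1 and Eef1e1 were chosen outside that rule with values in view. The alternatives tried were median scaling, quantile normalization, normexp background with an offset of 50, other filters on dim probes, the mean of probes or every probe, an eBayes trend, outlier spots kept, a replicate block, and each array left out. Plots used matplotlib 3.10.9 and Python 3.11.15.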

Additional observations from a re-analysis of the deposited data

How the results depend on the processing

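With 2 arrays per group the adjusted test had little power. Even Il7r, with the lowest difference of all genes at -2.99 ± 0.22, did not pass (limma adjusted p = 0.29). Its USP8ff_CD4Cre signals (-4.81 and -5.07) were below the lowest signal well above background on those arrays (-4.046 and -4.493). The size of its difference thus rests on values near background. Usp8, at -0.81 ± 0.13, did not pass either (limma adjusted p = 0.60). A synthetase that did not pass could therefore still differ. No gene passed the adjusted test under any of 14 alternatives. Of 504 synthetase differences under them 472 kept their direction and 32 reversed, in 17 members, while 19 members never reversed. An eBayes trend, every probe (read at the main probe), other filters on dim probes, outlier spots kept and a replicate block left these differences at their main values. The directions kept under those settings therefore say nothing about stability. All reversals were of differences under 0.15, except Vars2, and their causes were not tested. Averaging probes gave Hars -0.016, Mars -0.040, Iars2 0.001, Tars2 -0.034 and Wars2 0.016. Normexp background gave Eprs 0.008, and quantile normalization gave Rars 0.044, Ears2 0.012 and Tars2 -0.021. At an unadjusted p under 0.05, 1 synthetase was higher with normexp background (Lars2), and with a replicate block 1 was higher (Lars2) and 1 lower (Vars2, unadjusted p 0.0233 with the block and 0.361 without it), with a smallest adjusted p of 0.45 in limma. Averaging probes gave 12 of 20 cytosolic differences positive. The block called 1338 genes at that level against 970 without it. Same-numbered arrays deviated together (correlation 0.321 across 13062 genes, which are not independent replicates), but the labels do not say what a number marks.

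With each array left out in turn, the count of higher and of lower synthetases ran from 0 to 1 each (Vars and Vars2 without USP8ff_CD4Cre replicate 1, Lars2 without USP8ff replicate 1, Rars2 without USP8ff replicate 2), the cytosolic median from 0.026 to 0.137 and the mitochondrial median from 0.014 to 0.069. The count of all genes at that level ran from 396 (without USP8ff_CD4Cre replicate 2) to 1229 (without USP8ff replicate 1). The differences that reversed ran from -0.048 to 0.027 for Eprs, -0.041 to 0.037 for Iars, -0.064 to 0.062 for Rars, -0.058 to 0.183 for Farsb, -0.004 to 0.284 for Gars, -0.049 to 0.118 for Mars and -0.063 to 0.200 for Wars. Among mitochondrial enzymes they ran from -0.118 to 0.013 for Cars2, -0.360 to 0.338 for Ears2, -0.101 to 0.174 for Fars2, -0.256 to 0.153 for Iars2, -0.127 to 0.211 for Nars2, -0.014 to 0.190 for Pars2, -0.051 to 0.095 for Tars2 and -0.909 to 0.099 for Vars2. Without a filter on dim probes the median of all genes was -0.126, and the synthetase values did not move.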

Other observations

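Several synthetase probes differed more between replicate numbers than between genotypes. Both Vars2 probes and the Lars probe with the widest spread were higher in replicate 1 of each group, the latter at -0.06 and -0.72 in USP8ff and -0.34 and -1.28 in USP8ff_CD4Cre. For these probes the USP8ff_CD4Cre array was also the lower one of each number. The second Wars2 probe went the other way, at -2.70 and -1.82 in USP8ff and -2.51 and -1.72 in USP8ff_CD4Cre, and the glutamine transporter gene Slc1a5, singled out after its values were seen, was also higher in replicate 1, at 4.23 and 3.54 against 4.2 and 3.19. Over the 36 synthetases the replicate difference had the same sign in both groups for 23 (63.9%), compared with 7388 of all 13062 genes (56.6%). For 12 of the 36 the groups differed by less than either pair of replicate arrays did, and for 6 they differed by more than both. These counts were not made over all genes, so they do not set the synthetases apart.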
